A study of Mus musculus with 4 samples.

Results

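Integrins are the adhesion receptors with which microglia, the resident macrophages of the brain, hold on to matrix, other cells and debris coated with complement. The genes described here are the 10 integrin chains Itgax, Itgam, Itgb2, Itgal, Itga4, Itgb1, Itgav, Itgb5, Itga6 and Itga9, found by their symbols among the 32285 genes listed in the single-cell libraries, and all 10 passed the filter on low counts. The question was whether the lower Itgax in microglia lacking the arginine methyltransferase PRMT1 is shared by the other chains. Single brain cells sorted for CD45 and CD11b were sequenced from 2 PRMT1FL mice and 2 PRMT1Cx3cr1-KO mice, 1 library per mouse, after 5 wk on a diet with 0.2% cuprizone (CPZ), which binds copper and strips axons of myelin. PRMT1FL mice carry floxed Prmt1 alleles and, as their name is read here, no recombinase. PRMT1Cx3cr1-KO mice carry the same alleles with the tamoxifen-inducible Cx3cr1-CreERT, a recombinase expressed from Cx3cr1, a gene used by microglia and by other cells of the monocyte lineage. On that reading, an effect of the Cx3cr1-CreERT allele itself cannot be told apart from that of losing PRMT1. All 10 are protein-coding genes on the plus strand, and their positions below are those of mm10. All mice were on the C57BL/6 background and received tamoxifen, per the methods. The labels place the mice at 5 to 6 wk of age for the diet, whereas the methods give that age for the tamoxifen. The labels also call the cells quiescent, although every mouse had received CPZ and no mouse on normal diet was analysed here. Itgam encodes CD11b, so that the protein of 1 of the 10 members was used to sort the cells and its level describes cells already selected for it.

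An integrin is a pair of 1 alpha and 1 beta chain. Itgb2 (CD18) pairs with Itgax (CD11c, giving complement receptor 4), with Itgam (CD11b, giving complement receptor 3) and with Itgal (CD11a, giving LFA-1, the receptor of ICAM-1). Itgb1 (CD29) pairs with Itga4 in the receptor of VCAM-1 and fibronectin, with Itga6 in a laminin receptor and with Itga9. Itgav pairs with Itgb5 in a receptor of vitronectin, and with other beta chains. Itgax is best known as a marker of dendritic cells and of microglia in development, demyelination and disease.

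The libraries held 76943248 to 99559644 unique molecular identifiers (UMIs, 1 for each RNA molecule caught). Of the 8170 to 11427 cells per mouse that passed the filters, 7815 to 10980 fell into microglial clusters, and their UMIs were summed per mouse because the mouse is the replicate. Each level below is in UMIs of the gene scaled to a common total (CPM, counts per 1e6 UMIs of these sums), a scale with no term for gene length, since only the 3′ end of each RNA was read. Overlap between genotypes was judged on these CPM. The log2 fold changes of edgeR also use TMM factors, a further scaling between libraries, and lie lower than the CPM alone would give. H2-DMa, for example, was at 277, 298, 273 and 298 CPM and had a log2 fold change of -0.083. Prmt1, the targeted gene, was at 91.2 and 84.0 CPM in PRMT1FL and at 70.3 and 70.7 CPM in PRMT1Cx3cr1-KO microglia. Its 3′ end may lie outside the deleted stretch, so this level alone does not check the deletion. All 8 microglial markers were present in each mouse, and together they reached 20760 to 23690 CPM. RNA of other cells remained in these sums: haemoglobin genes were at 240.3 and 93.7 CPM in PRMT1FL and at 0.061 and 0.021 CPM in PRMT1Cx3cr1-KO mice, 5 neutrophil markers at 52.1, 169, 0.674 and 97.5 CPM, 7 markers of the Mrc1-positive cells called F in the study at 21.1, 21.6, 38.5 and 102 CPM, and 7 dendritic cell markers at 20.4 to 25.3 CPM. Their part in the integrin levels was not tested. The libraries shared 31 to 46 cell barcodes per pair.

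Itgax and Itgam lie next to each other on chromosome 7 of mm10 and are read in the same direction, Itgam from 128062640 to 128118491 and Itgax from 128129547 to 128150657, with their starts 66.9 kb apart. Because these neighbours pair with the same beta chain and differed in the size of their genotype difference, the 300 bases around the start of each are shown (RefSeq, GRCm38.p6, plus strand). Both windows were searched on both strands for GAGGAAG, a sequence bound by PU.1, a factor that myeloid cells depend on, for the spaced GAAA repeat of interferon response elements, and for TATAAA. Capitals mark the matches.

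Itgax, chr7:128129300-128129599: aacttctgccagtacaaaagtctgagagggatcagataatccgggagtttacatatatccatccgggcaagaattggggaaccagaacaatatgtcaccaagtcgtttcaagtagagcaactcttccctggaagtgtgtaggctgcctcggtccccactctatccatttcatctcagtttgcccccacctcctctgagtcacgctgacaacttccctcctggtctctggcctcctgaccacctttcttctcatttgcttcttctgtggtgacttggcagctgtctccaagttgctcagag

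Itgam, chr7:128062390-128062689: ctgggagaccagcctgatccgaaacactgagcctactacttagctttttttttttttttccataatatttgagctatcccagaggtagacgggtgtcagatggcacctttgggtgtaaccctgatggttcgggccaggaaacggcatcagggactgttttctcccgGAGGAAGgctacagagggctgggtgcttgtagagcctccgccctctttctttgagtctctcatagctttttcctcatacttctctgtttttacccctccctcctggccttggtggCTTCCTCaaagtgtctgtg

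The Itgam window held GAGGAAG at 84 bases before the start and its reverse complement 31 bases after it, and the Itgax window held none of the 3 motifs. Of 32851 promoter windows, 13.6% held GAGGAAG, 3.44% held the GAAA repeat and 13.6% held TATAAA. Windows were found for 7 of the 10 members, and among the others only Itgav had a match, to GAGGAAG. The window of Itga9, from 118711442 to 118711741, lies inside the gene, which starts at 118606690 in the annotation, so that start was not searched. These matches are letters in a window and no binding was measured.

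Itgax (ENSMUSG00000030789) was at 128 and 134 CPM in PRMT1FL and at 64.2 and 29.5 CPM in PRMT1Cx3cr1-KO microglia. Both PRMT1Cx3cr1-KO mice lay below both PRMT1FL mice, and they differed from each other far more than the PRMT1FL mice did. The counts behind these levels were 11329, 9767, 5238 and 2771 UMIs. On the log2 scale the fold change was -1.55, a 2.93-fold lower level, with a standard error (SE) of 0.34 and a 95% interval of -2.38 to -0.72. It did not pass the threshold with all mice (adjusted p = 0.102, quasi-likelihood test of edgeR, adjusted over all genes by the method of Benjamini and Hochberg). Of 13871 genes tested, 64 had a more negative value. Leaving out PRMT1Cx3cr1-KO mouse 1 gave -2.24 (edgeR adjusted p = 3.62e-11), and leaving out PRMT1Cx3cr1-KO mouse 2 gave -1.08 (edgeR adjusted p = 1.02e-06). Both of these fits have a single PRMT1Cx3cr1-KO mouse, which is taken to vary like the close pair of PRMT1FL mice, so that their p-values hold no spread among PRMT1Cx3cr1-KO mice. Without PRMT1FL mouse 1 or mouse 2 the value was -1.58 or -1.52, with adjusted p = 0.517 or 0.540 from edgeR.

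None of the 10 integrin chains passed an adjusted p of 0.05 from edgeR, where 62 genes, or 0.447% of all, did. DESeq2 called 0 of the 10 chains as well, where it called 677 genes in all, so that 0.447% is not its share. At an unadjusted p under 0.05 edgeR counted 5, namely Itgax, Itgam, Itgb2, Itgav and Itga9, against 19.6% of all genes. In 4 chains, Itgax, Itgam, Itgb2 and Itgb5, both PRMT1Cx3cr1-KO mice lay below both PRMT1FL mice, where 17.5% of all genes did so. In another 4, Itgb1, Itgav, Itga6 and Itga9, they lay above, where 38.6% of all genes did. Levels of Itgal and Itga4 overlapped between genotypes.

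**Figure D1:**
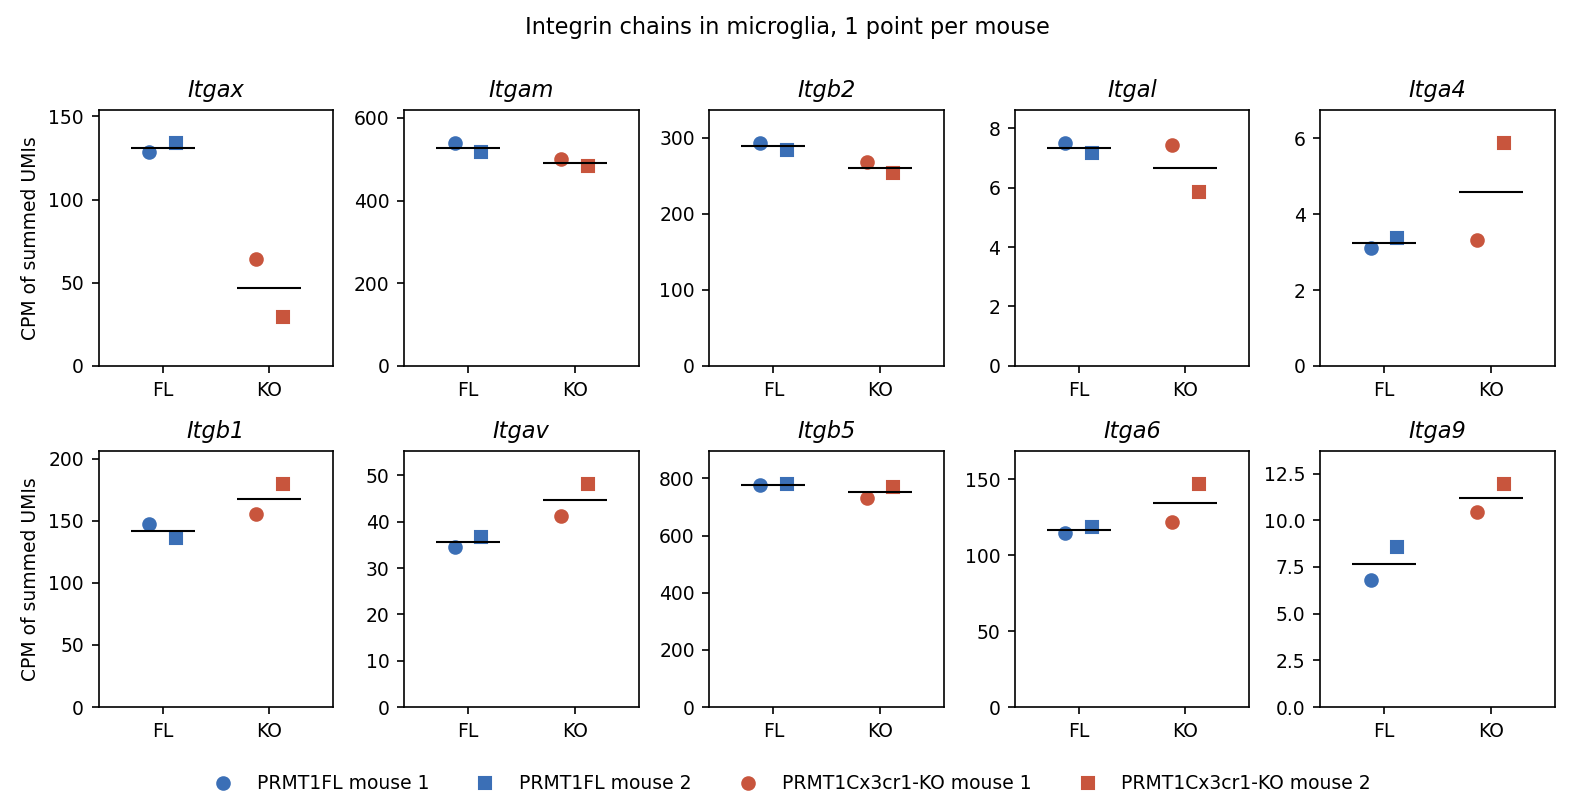
Level of each of the 10 integrin chains in microglia, in CPM of summed UMIs on axes that start at 0; each point is 1 mouse (circle for mouse 1, square for mouse 2), FL is PRMT1FL, KO is PRMT1Cx3cr1-KO, and the line is the mean of 2 mice. Itgax is at 128 and 134 CPM against 64.2 and 29.5 CPM, while the points of Itgam, Itgb2 and Itgb5 stay close together.

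Among the partners of Itgb2, the differences were small beside that of Itgax. Itgam (ENSMUSG00000030786) was at 539 and 517 CPM in PRMT1FL and at 499.98 and 483 CPM in PRMT1Cx3cr1-KO mice, or -0.18 as log2 fold change (SE 0.072, edgeR adjusted p = 0.254). Itgb2 (chromosome 10, 77530252 to 77565708), the beta chain without which neither Itgax nor Itgam reaches the surface, was at 293, 284, 268 and 254 CPM, or -0.22 as log2 fold change (SE 0.072, edgeR adjusted p = 0.179). Itgal, which lies on the same chromosome further from Itgax (chromosome 7, 127296260 to 127335138), was scarce, at 7.49, 7.16, 7.44 and 5.85 CPM, and PRMT1Cx3cr1-KO mouse 1 lay within the range of the PRMT1FL mice. As log2 fold change this gave -0.21 (SE 0.143, edgeR adjusted p = 0.451).

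Itgb1 and its partners lay on the other side of 0. Itgb1 (chromosome 8, 128685654 to 128733200) was at 147, 136, 156 and 179 CPM, or 0.17 as log2 fold change (SE 0.078, edgeR adjusted p = 0.306). Itga6 (chromosome 2, 71745616 to 71858416) was at 115, 119, 122 and 147 CPM, or 0.13 as log2 fold change (SE 0.084, edgeR adjusted p = 0.434), and most of its difference came from PRMT1Cx3cr1-KO mouse 2. Itga9 (chromosome 9, 118606690 to 118901003), with 6.83, 8.54, 10.4 and 11.9 CPM, had the largest positive value, 0.47 (SE 0.126, edgeR adjusted p = 0.136). Itga4 (chromosome 2, 79255426 to 79333123) had few UMIs (275, 246, 271 and 551) and levels of 3.12, 3.37, 3.32 and 5.87 CPM, so that only PRMT1Cx3cr1-KO mouse 2 stood apart. As log2 fold change this gave 0.43 (SE 0.248, edgeR adjusted p = 0.389), and -0.011 without that mouse (edgeR adjusted p = 0.98). Of the 551 UMIs in PRMT1Cx3cr1-KO mouse 2, 109 came from 339 cells of a small cluster called B1-like here, and leaving B1-like cells out gave 0.25 (edgeR adjusted p = 0.521). In that mouse Itga4 was at 56.0 CPM in B1-like cells, beside 74.1 CPM in F-like cells, which were not summed as microglia.

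The vitronectin receptor chains went apart from each other. Itgav (chromosome 2, 83724397 to 83806916) was at 34.6, 36.6, 41.1 and 48.1 CPM, or 0.25 as log2 fold change (SE 0.082, edgeR adjusted p = 0.181). Itgb5 (chromosome 16, 33829665 to 33949338) was at 777, 779.7, 731 and 772 CPM, and the value of -0.13 (SE 0.066, edgeR adjusted p = 0.351) rests on mice of the 2 genotypes that lay as close as 777 and 772 CPM. Part of this value comes from the TMM factors, since the mean CPM were 778 in PRMT1FL and 751 in PRMT1Cx3cr1-KO mice. No member but Itga4 changed direction when a mouse was left out, the scaling changed or other cells were summed.

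**Figure D2:**
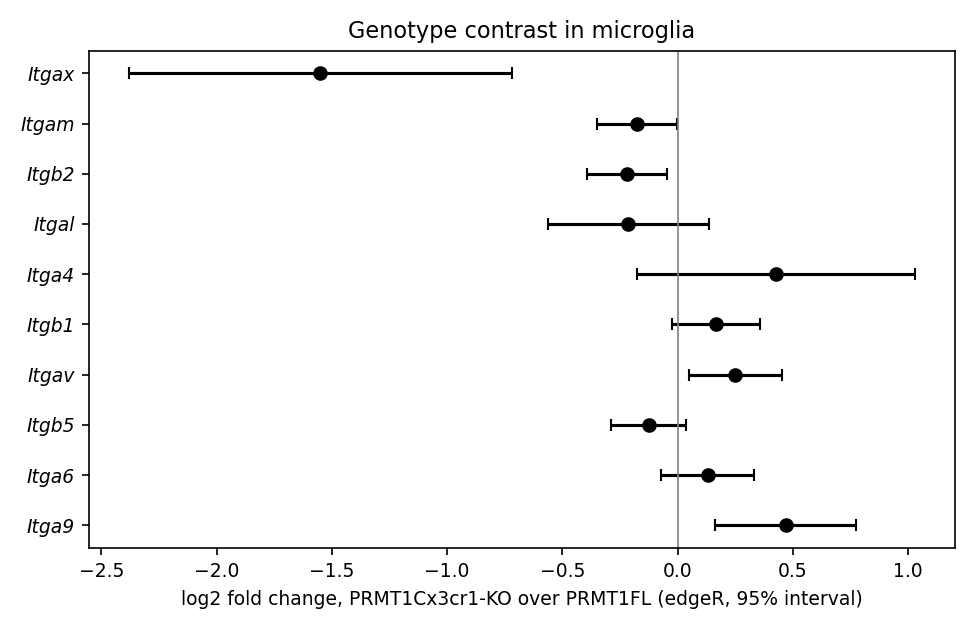
Log2 fold change of each integrin chain between PRMT1Cx3cr1-KO and PRMT1FL microglia with its 95% interval, from edgeR on sums per mouse (2 mice per genotype). Itgax lies at -1.55 and the other 9 chains between -0.22 and 0.47.

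Relating Itgax to the other chains within each library removes any effect of library size. For every 100 UMIs of the other 9 chains together there were 6.68 and 7.08 UMIs of Itgax in PRMT1FL mice, but 3.49 and 1.55 in PRMT1Cx3cr1-KO mice. The log2 ratio was -3.86 ± 0.059 (SD, n = 2) and -5.43 ± 0.828 (SD, n = 2), a difference of -1.56, and the exact permutation test gave p = 0.3333 (2-sided), the smallest it can give with 2 mice against 2. The 9 other chains together were at 1923 and 1891 CPM in PRMT1FL and at 1839 and 1906 CPM in PRMT1Cx3cr1-KO mice, levels that overlap between genotypes in CPM. Their sum was not computed with the TMM factors that the fold changes use. Itgax made up 6.26 and 6.61% of all UMIs of the 10 chains in PRMT1FL and 3.37 and 1.53% in PRMT1Cx3cr1-KO mice. Taken against each chain alone, the ratio was lower in PRMT1Cx3cr1-KO mice for all 9 chains with no overlap between genotypes. The difference was 1.44 (Itgal and Itgb2) to 2.14 (Itga9) on the log2 scale. Per 100 UMIs of Itgam, the gene directly before Itgax on chromosome 7, there were 23.8, 25.9, 12.8 and 6.12 UMIs of Itgax. Per 100 UMIs of Itgb2, the shared beta chain, there were 43.8, 47.1, 24.0 and 11.7. All 9 ratios share the Itgax counts and are not independent of each other.

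**Figure D3:**
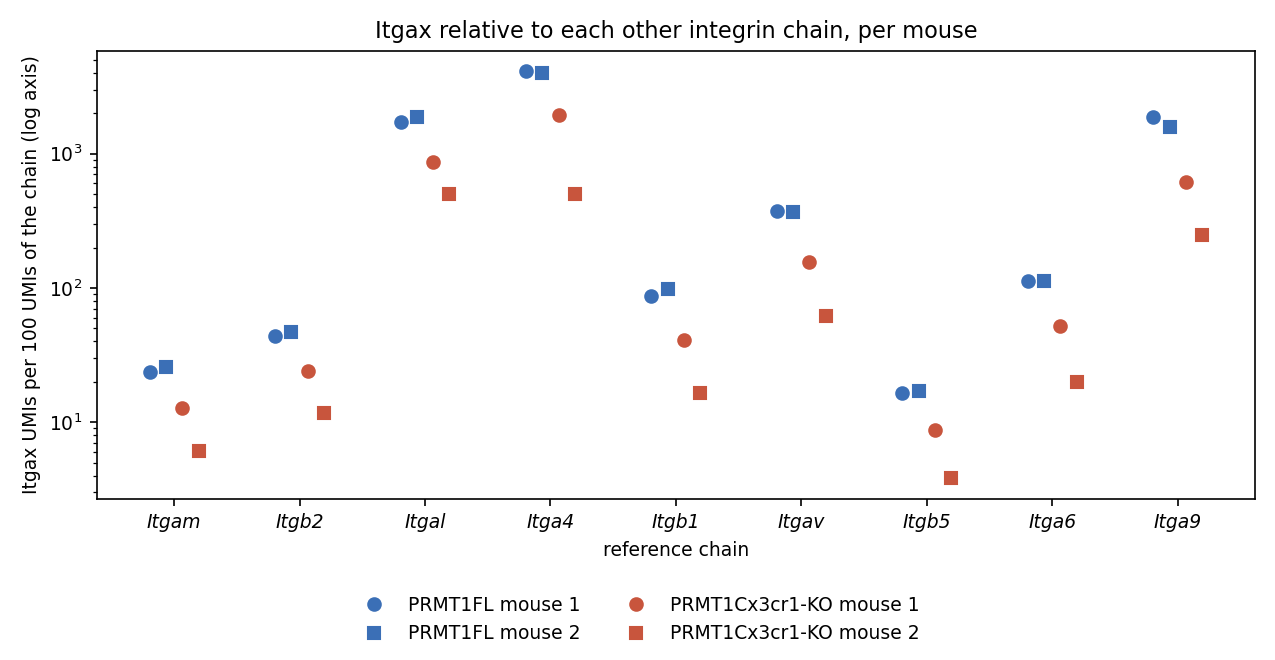
UMIs of Itgax per 100 UMIs of each other integrin chain in microglia, on a log axis; each point is 1 mouse, blue for PRMT1FL and red for PRMT1Cx3cr1-KO. In each of the 9 columns both red points lie below both blue points, for Itgb5 at 8.78 and 3.83 against 16.5 and 17.2.

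The share of cells with a UMI of Itgax and the UMIs in those cells were both lower in PRMT1Cx3cr1-KO mice. Both fall when the mean level falls, so they restate that level. They cannot show whether fewer cells express the gene. Without thinning, a UMI of Itgax was found in 37.5 and 40.5% of PRMT1FL and in 24.8 and 14.96% of PRMT1Cx3cr1-KO microglia, and such cells held on average 2.75, 3.09, 2.07 and 1.74 of them. Shares of this kind grow with depth, and the median microglial cell had 6235.5, 7080, 6282 and 6966.5 UMIs. With each cell thinned to 1000 UMIs, which left out 275 to 467 shallower cells per mouse, the shares were 10.8% (1143 of 10597 cells), 11.3% (852 of 7540), 6.13% (596 of 9730) and 3.15% (322 of 10211). The difference was -6.40 percentage points (exact permutation p = 0.3333, 2-sided, the smallest possible). In the cluster of non-microglial cells, which should lack the gene, the thinned share was 0.488 and 0.741% in PRMT1FL mice, and 0 of 48 and 0 of 25 cells in PRMT1Cx3cr1-KO mice, which allow shares of up to 6.25 and 12%, at median depths of 2660, 3075, 1799 and 2066.5 UMIs. Among the other chains, the thinned share of Itgam cells was 34.6, 34.0, 34.1 and 34.4%, and that of Itgb5 cells was 52.9, 53.1, 51.2 and 52.0%. For Itgb1 it was 13.01, 12.1, 14.1 and 16.2%, and for Itgav 3.77, 4.14, 5.07 and 5.05%. Itgal and Itga4 were found in 0.29 to 0.68% of thinned cells.

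Cells with a UMI of Itgax were also compared with the rest of the thinned microglia in each mouse. Itgam was lower in them in all 4 mice, by a log2 ratio of -0.46 on average (-0.68 to -0.29), and -0.53 inside C1/C2-like cells alone, a state described next. Itga9 was lower in all 4 mice as well, by -0.88 (-2.12 to -0.075), on 7, 7, 7 and 1 UMIs in the cells with Itgax, and was at 0.08 inside C1/C2-like cells. Itga4 was higher in all 4, by 1.27 (0.69 to 1.76), on 9, 8, 4 and 5 UMIs. Itgb2 was at 0.19 (-0.04 to 0.31) and Itgb5 at 0.07 (0.02 to 0.10). These are descriptions of the same cells, with 4 mice and no test.

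For the comparison by cell state, cells were clustered without the integrin genes and without 1197 genes that differed between genotypes, so that neither could define a cluster. D/E-like cells carried P2ry12, Sall1, Tmem119 and other markers of the clusters called D and E in the study. Of 4 markers of D 3 were over 2-fold higher than in the other cells, and of 4 markers of E 3 were. Hspa1b and Hspa1a were also among their leading genes. The study names HSPA1A as a marker of transcription set off by enzymatic isolation, and saw no sign that such genes made a cluster. The part of isolation in this state was not tested here. C1/C2-like cells were led by Dusp2, Il12b and Il1b, but their match to the study's clusters C1 and C2 was weak. Of 12 markers of those clusters, 4 were over 2-fold higher than in the other cells, as many as in interferon-like cells, and of 6 interferon genes 0 were. The borders of C1/C2-like cells also moved with the clustering. With another random seed, 6348 of the 12448 cells kept this name, 3174 fell with D/E-like cells and 2896 with the Gpnmb-led cluster. With all variable genes kept, 7619 kept it and 4082 fell with the Gpnmb-led cluster. A1-like cells were led by genes of cell division such as Top2a and Mki67, and interferon-like cells by Rsad2 and Ifit3. Another state was led by Gpnmb, had genes of cell division such as Ccnb2 and Pttg1 among its leading genes, and stayed unnamed. The last, also unnamed, had 375 to 565 CPM of the nuclear RNA Malat1, where the other tested states had 9989 CPM or more, and is called the Malat1-low cluster. It held 17265 and 6825 haemoglobin UMIs in PRMT1FL and 0 in both PRMT1Cx3cr1-KO mice. Beside haemoglobin genes, its leading genes included genes of cell division such as Ube2c and Rrm2. Over all microglia, 9 barcodes with over 10% haemoglobin UMIs, all from PRMT1FL mice, carried 27349 of 28040 such UMIs. B1-like cells (15, 2, 61 and 339 per mouse) were too few to test. Of 7 markers listed for B1, 7 were over 2-fold higher in them than in the other cells, and of 7 markers of F cells 4 were. The 8 microglial markers had a median log2 ratio of -0.38 there.

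In each of the 6 states Itgax lay lower in the PRMT1Cx3cr1-KO mice, with no overlap between genotypes. In C1/C2-like cells, the state with the highest level in every mouse, it was at 192 and 199 CPM in PRMT1FL and at 88.4 and 49.9 CPM in PRMT1Cx3cr1-KO mice. In the Malat1-low cluster it was at 101, 104, 44.0 and 31.1 CPM, in interferon-like cells at 96.1, 91.0, 37.9 and 18.8 CPM, and in the Gpnmb-led cluster at 76.7, 91.4, 43.4 and 18.8 CPM. D/E-like cells had 63.6, 67.2, 47.2 and 29.3 CPM and A1-like cells 58.2, 46.6, 27.0 and 11.2 CPM. In this order of the PRMT1FL mice, interferon-like and Gpnmb-led cells overlapped and the other neighbours did not. In the PRMT1Cx3cr1-KO mice only C1/C2-like cells stood clear of the rest.

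The log2 fold change of Itgax was -1.63 in C1/C2-like cells (adjusted p = 1.54e-05), -1.72 in the Gpnmb-led cluster (adjusted p = 6.69e-05), -1.64 in the Malat1-low cluster (adjusted p = 0.00239) and -0.85 in D/E-like cells (adjusted p = 0.0447), each from limma's voom fit over all states with the mouse as a random block. In A1-like and interferon-like cells, which had 37 to 98 and 18 to 171 UMIs of Itgax per mouse, it was -1.71 and -1.81 and did not pass (adjusted p = 0.439 and 0.576 from voom). The fit found a correlation of only 0.163 between sums of a mouse and so treats them as nearly independent. In edgeR fits to each state alone the adjusted p was 0.0562 in the Gpnmb-led cluster and 3.40e-05 to 0.0281 in the other 5. Without PRMT1FL mouse 1 or mouse 2, voom gave adjusted p = 0.214 or 0.305 in D/E-like cells and 0.151 or 0.122 in the Malat1-low cluster. With a higher resolution of the clustering the value in D/E-like cells was -0.52 (adjusted p = 0.322 from voom), and with all variable genes kept in the clustering -0.29 (adjusted p = 0.655). The effect in D/E-like cells lay 0.85 above the mean of the other states, which did not pass (adjusted p = 0.133 from voom, unadjusted 95% interval 0.14 to 1.56). It passed without PRMT1Cx3cr1-KO mouse 1 (0.99, adjusted p = 0.00230) and without PRMT1Cx3cr1-KO mouse 2 (0.69, adjusted p = 0.0148), and with either of those changes to the clustering (1.22 and 1.498, adjusted p = 0.0345 and 0.0377). In the fits without a PRMT1Cx3cr1-KO mouse, the spread comes from the PRMT1FL mice and from states of the same mouse.

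**Figure D4:**
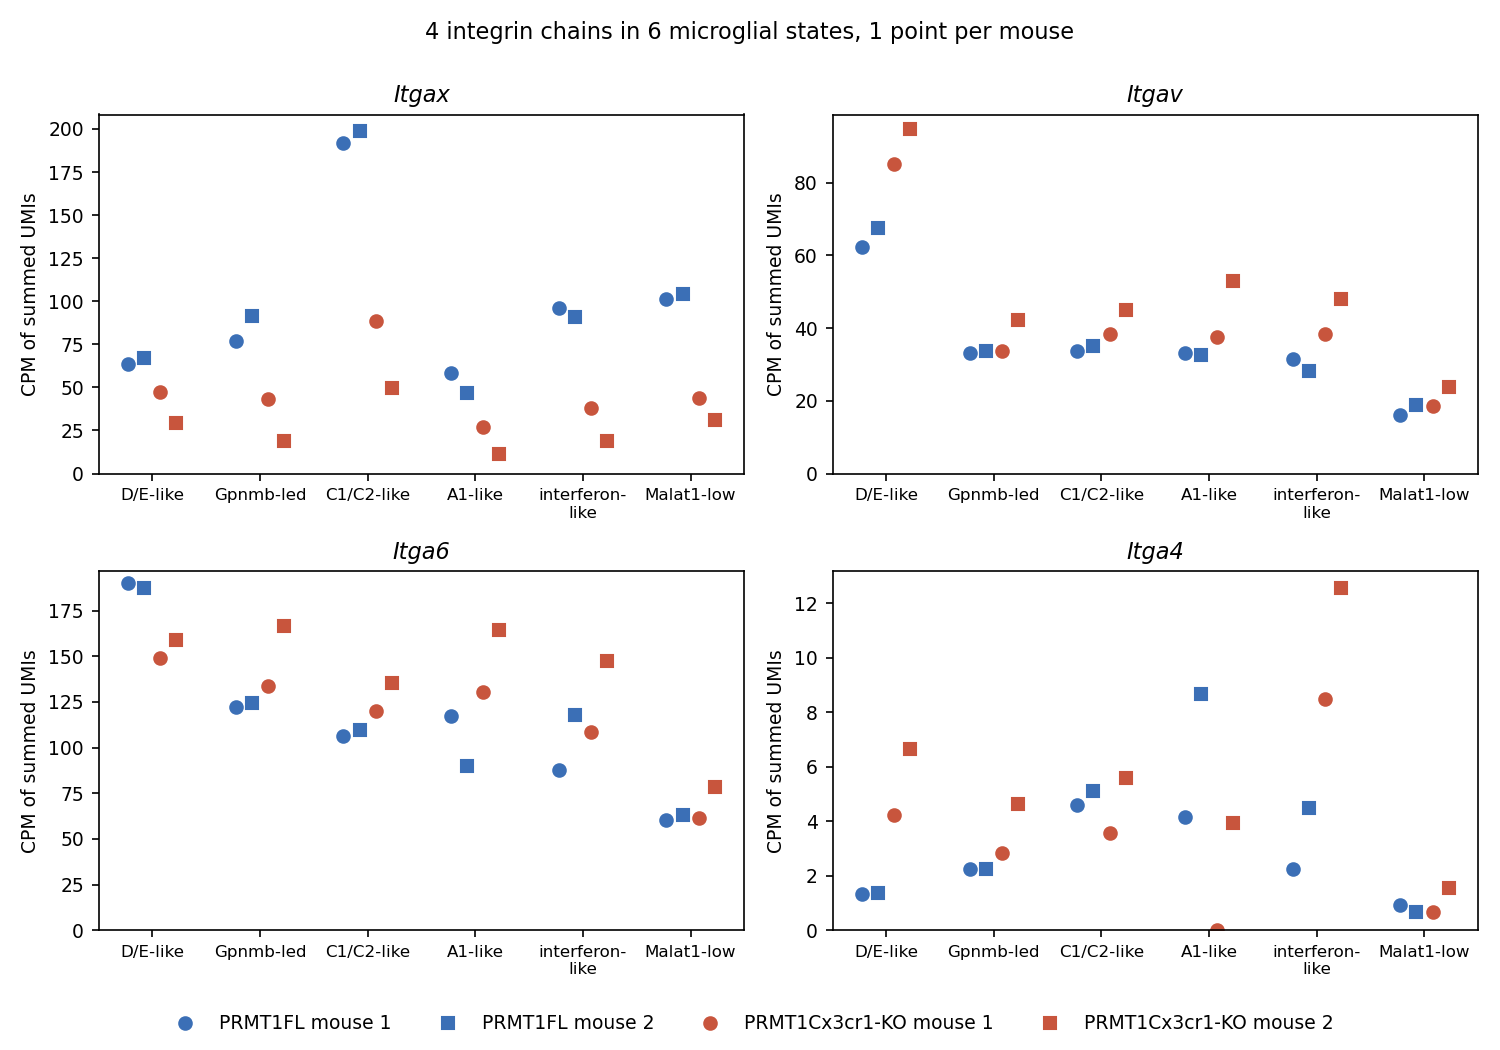
Levels of Itgax, Itgav, Itga6 and Itga4 in 6 microglial states, in CPM of UMIs summed per mouse and state; each point is 1 mouse, blue for PRMT1FL and red for PRMT1Cx3cr1-KO. Itgax is lower in both PRMT1Cx3cr1-KO mice in each state, Itga6 is lower in them in D/E-like cells (149 and 159 against 190 and 187 CPM), and the point of Itga4 at 0 in A1-like cells is a mouse with no UMI.

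The mix of states differed between mice, and its share in the level of Itgax was computed. C1/C2-like cells numbered 3875, 2594, 3769 and 2210 per mouse. If each state had kept its PRMT1FL level of Itgax, the mix of states in the PRMT1Cx3cr1-KO mice would have given 134 and 113 CPM, and 64.2 and 29.5 CPM were observed. These states were made without the integrins and without 1197 genes that differed between genotypes. A loss of cells marked by those genes could therefore hardly show in this mix. The mix was not computed for the clustering with all variable genes. With the state as a term in one voom fit, the log2 fold change was -1.54 (adjusted p = 1.98e-07). In that fit 7 of the 10 chains were called, where 24.8% of all genes were. Itgam (-0.16), Itgb2 (-0.20) and Itgb5 (-0.12) were lower with Itgax, and Itgb1 (0.16), Itgav (0.24) and Itga9 (0.42) were higher, with adjusted p = 0.00165 to 0.00568 from voom for these 6. Itgal (-0.29, adjusted p = 0.0591), Itga6 (0.08, adjusted p = 0.5002) and Itga4 (0.24, adjusted p = 0.580) were not called by voom. The interval of Itgax in this fit, -1.85 to -1.22, lies apart from those of the other 9, the lowest of which reaches -0.52 (Itgal). This fit found a correlation of only 0.104 between sums of a mouse and so treats them as nearly independent. Its intervals and adjusted p-values therefore hold little of the spread between mice. With the mouse as the unit, edgeR gave Itgax an interval of -2.38 to -0.72 (adjusted p = 0.102).

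D/E-like cells had the most calls among the integrins. The nuclear RNA Neat1 also differed in this state, at 389 and 305 CPM in PRMT1FL and 933 and 763 CPM in PRMT1Cx3cr1-KO mice, against 361, 363, 368 and 390 CPM in C1/C2-like cells. Malat1 was at 33228 and 33860 CPM in PRMT1FL and at 27509 and 26598 CPM in PRMT1Cx3cr1-KO D/E-like cells, and the part of either in the calls was not tested. In D/E-like cells 5 of 10 chains passed an adjusted p of 0.05 from voom, against 20.4% of all genes. Itgav rose from 62.5 and 67.6 CPM to 85.2 and 94.9 CPM (log2 fold change 0.46, adjusted p = 5.63e-04), and Itgb1 from 160 and 155 CPM to 174 and 203 CPM (0.24, adjusted p = 0.0209). Itga6, the laminin-binding chain, fell from 190 and 187 CPM to 149 and 159 CPM (-0.31, adjusted p = 0.0154), although over all microglia its value was positive. Itga4 rose from 1.32 and 1.38 CPM to 4.22 and 6.64 CPM (1.94, adjusted p = 0.00628), which rests on 12, 12, 43 and 81 UMIs. Itgam (584, 589, 575 and 588 CPM) and Itgb2 (231, 234, 235 and 249 CPM) overlapped or nearly did in this state, and neither was called.

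In the Gpnmb-led cluster 4 chains were called by voom, where 10.3% of all genes were. Besides Itgax these were Itgam, which fell from 618 and 586 CPM to 539 and 513 CPM (-0.27, adjusted p = 0.00498), Itgb2 (-0.26, adjusted p = 0.0107) and Itga9, which rose from 4.39 and 6.06 CPM to 8.39 and 9.21 CPM (0.71, adjusted p = 0.00491). C1/C2-like cells had 4 calls as well, where 11.3% of all genes were called. Beside Itgax, Itgb2 (-0.22, adjusted p = 0.0286) and Itgb5 (-0.14, adjusted p = 0.0289) fell and Itga9 rose (0.46, adjusted p = 0.0301), all by voom. In the Malat1-low cluster Itgax and Itgb2 (-0.31, adjusted p = 0.0230) were called, where 3.76% of all genes were. In A1-like and interferon-like cells voom called 0 of 10 chains, where it called 0.486% and 0.016% of all genes. The edgeR fits to each state alone called 4 chains in D/E-like cells, 0 in the Gpnmb-led cluster and 1 in each of the other states. The share of all genes that these edgeR fits called is not given here, so these counts cannot be set against it.

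Some chains differed in their effect between states. The genotype effect in D/E-like cells was set against the mean effect in the other 5 states, a difference that voom called for 8.94% of all genes. Of the 10 chains it was called for 3. For Itga6 the difference was -0.54 (adjusted p = 8.21e-04), since its level in the Gpnmb-led cluster was 122 and 124 CPM in PRMT1FL and 134 and 167 CPM in PRMT1Cx3cr1-KO mice, and in C1/C2-like cells 106, 110, 120 and 135 CPM. For Itgb2 it was 0.28 (adjusted p = 0.0286), and for Itga4 1.996 (adjusted p = 0.0154). For Itga4 the mean of the other 5 states includes -2.62 in A1-like cells, where a mouse had no UMI. Its values in the Gpnmb-led, C1/C2-like, interferon-like and Malat1-low cells were 0.69, -0.23, 1.61 and 0.28. With another random seed of the clustering, where no A1-like state entered the mean, the difference for Itga4 was -0.19 (adjusted p = 0.806 from voom). That seed also gave -0.33 for Itga6 (adjusted p = 0.0589) and 0.17 for Itgb2 (adjusted p = 0.239). Without PRMT1FL mouse 1 or mouse 2 the difference was not called for Itga4 (adjusted p = 0.195 and 0.249) or Itgb2 (0.374 and 0.104), and for Itgb2 it was not called without PRMT1Cx3cr1-KO mouse 2 either (0.218, all from voom). No chain was called for such a difference in the other 5 states, where voom called 0.104% of all genes in C1/C2-like cells, 0.471% in A1-like cells and 0% in the Gpnmb-led, interferon-like and Malat1-low cells.

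**Figure D5:**
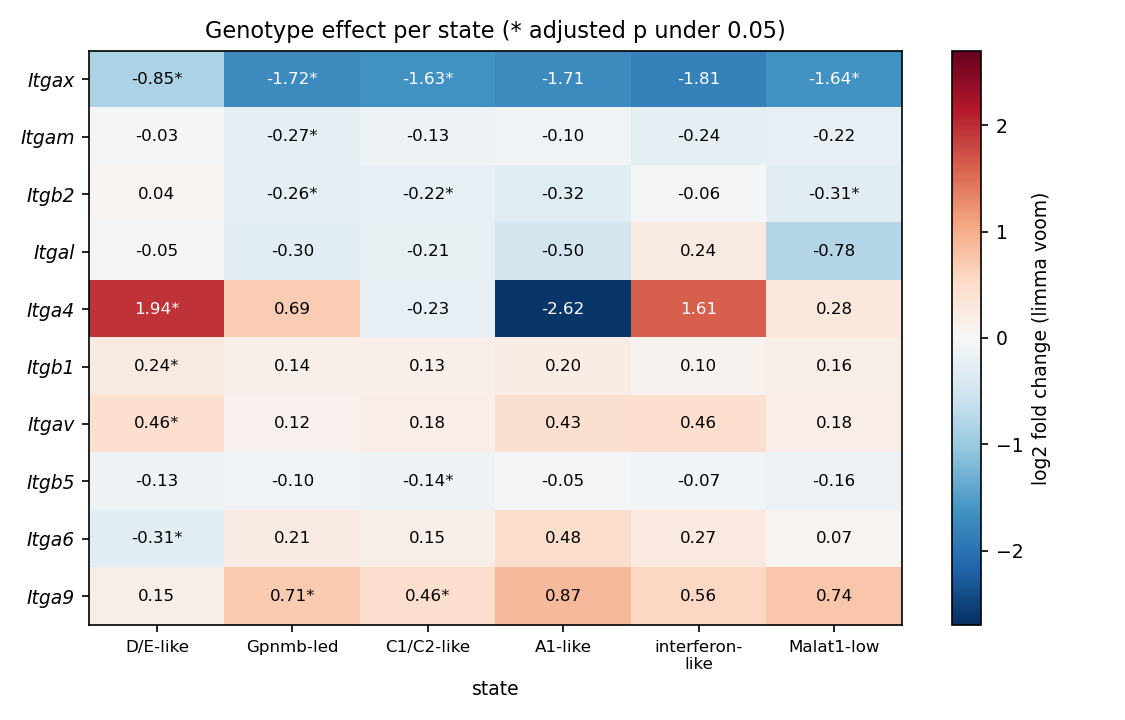
Log2 fold change of each integrin chain (rows) between PRMT1Cx3cr1-KO and PRMT1FL mice in 6 microglial states (columns), from limma's voom fit; blue is lower and red is higher in PRMT1Cx3cr1-KO, and a star marks an adjusted p under 0.05. The row of Itgax runs from -0.85 to -1.81, and the dark cell of Itga4 in A1-like cells comes from a mouse with no UMI there.

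The levels of the members were also placed among other genes over the 24 sums of the 6 states and 4 mice. Siglecf, a sialic acid receptor, followed Itgax best of 7379 genes (Pearson r = 0.963), ahead of the MHC class II genes Cd74 (0.924) and H2-Aa (0.887), the chemokine Ccl9 (0.880) and Gm2a (0.864). Siglecf was at 53.3, 58.9, 36.4 and 21.4 CPM, a log2 fold change of -1.02 (edgeR adjusted p = 0.111). For Itgav the best match was Cltc (0.973), for Itgam 2610037D02Rik (0.953) and for Itgb2 Ctnnb1 (0.865). The 24 sums share mice and depth, and these coefficients carry no test.

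Around Itgax on chromosome 7, the 5 genes before it and the 5 after it were examined. Of these, Pycard was at -0.20 as log2 fold change (adjusted p = 0.180 from edgeR). Cox6a2, a subunit of cytochrome c oxidase, is read from the opposite strand, and its nearer end lies 75.9 kb from the start of Itgax. It was at 387, 426, 237 and 153 CPM, or -1.13 as log2 fold change (SE 0.211, edgeR adjusted p = 0.0893). Itgad, a close relative of Itgax, follows it on the same strand, and Cox6a2 lies within the span of Itgad. It had 12 to 27 UMIs of Itgad per mouse and a value of -0.76 (edgeR adjusted p = 0.373). Trim72 (5 to 23 UMIs per mouse), 4931431B13Rik (37 to 48) and Gm44850 (13 to 24) overlapped between genotypes. Their log2 fold changes were -0.68, -0.21 and 0.14 (edgeR adjusted p = 0.659, 0.725 and 0.877). Gm15533 and Gm39091 did not pass the filter on low counts.

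Other chains and partners of integrins were followed as lists. In each of them, calls by edgeR are to be set against 0.447% of all genes. Of 16 further integrin chains 8 could be tested and 0 were called by edgeR, with 3 positive and 5 negative values. Itgb3 (20.3, 19.0, 20.5 and 24.1 CPM) and Itga5 (21.0, 18.9, 20.3 and 21.7 CPM) were the ones above 10 CPM, with log2 fold changes of 0.11 and 0.00 (adjusted p = 0.520 and 0.996 from edgeR). Of 33 activators and adaptors, such as talin and the kindlins, 28 were tested and 0 called, 13 with positive and 15 with negative values and a median of -0.02, beside -0.004 for all genes. Among those of at least 10 CPM, the values farthest from 0 were -0.39 for the kinase Fgr, -0.17 for Parvg and 0.16 for Rap1b. Fgr was at 49.8, 52.0, 48.5 and 32.9 CPM, so that most of its difference came from PRMT1Cx3cr1-KO mouse 2. Of 26 ligands 19 were tested and 0 called, with 7 positive and 12 negative values and a median of -0.12. Among those of at least 10 CPM, Fn1 (fibronectin) was at 0.66, Tgfb1, whose latent form is bound by Itgav, at -0.32, and Icam1 at 0.23. Icam1 was at 265, 277, 391 and 277 CPM, so that only PRMT1Cx3cr1-KO mouse 1 stood apart.

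Genes often seen with Itgax in disease-associated microglia had mostly negative values. Of the list, 19 genes were tested, 17 had negative values and 2 positive, with a median of -0.23, beside -0.004 for all genes. Of these 19, edgeR called 1, the chemokine Ccl6 (-0.65, adjusted p = 0.0463), where it called 0.447% of all genes. All 7 genes of the MHC class II list, which includes the transactivator Ciita, had negative values, with a median of -2.23 and 0 called by edgeR. The largest of those above 10 CPM were -2.73 for H2-Aa, -2.54 for H2-Eb1 and -2.23 for Cd74. The fall was not alike across the list: H2-DMb1 was at -0.32, and H2-DMa, at -0.08, overlapped between genotypes. The value of Itgax, -1.55, lay between the medians of these lists.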

How the data were processed

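Files of 4 libraries made with the 10x Genomics 3′ v2 kit were used. Per the labels and the methods, the authors processed the reads with Cell Ranger 3.1.0 against mm10 and deposited raw UMI counts per gene and barcode, with no normalization; Seurat 3.2.0 and Scanpy 1.5.2 are also named in the submitters' processing notes. Groups were taken from the sample titles.

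Barcodes were kept where 200 to 6000 genes were seen and mitochondrial UMIs did not exceed 10%, as in the methods (11427, 8170, 10370 and 10902 cells of 11554, 8284, 10498 and 11029 barcodes, in the order PRMT1FL mouse 1 and 2, PRMT1Cx3cr1-KO mouse 1 and 2). Log values of counts per 10000, from 2000 variable genes over 20 principal components, were clustered by Leiden at resolution 0.3 (Scanpy 1.11.5, igraph 0.11.9). Genes with an unadjusted p under 0.05 and at least a 2-fold difference between genotypes (1197 of 14757) and the integrin genes were left out of this step. Clusters were named from marker lists. The doublet caller's own threshold marked 0 to 2 cells per library and had not worked, so the cells with the highest scores (0.8% per 1000 cells) were marked and kept, and left out in an alternative.

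UMIs were summed per mouse over microglial clusters (72944859 to 93822378 UMIs) and tested with edgeR 4.0.16 (quasi-likelihood, TMM factors, genes kept by filterByExpr, Benjamini-Hochberg adjustment over all 13871 genes). Sums per mouse and state (at least 50 cells in every mouse, 12539 genes) were tested with limma 3.58.1 (voom, mouse as random block). Exact permutation tests were 2-sided (SciPy 1.17.1). DESeq2 1.42.0 was an alternative. The scripts were tested on simulated data. Each group has 2 mice, each a separate library; nothing else says how the mice were raised or processed, and whether libraries were made on 1 day is not given in the sources used here.

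The 10 members and the gene lists were chosen with earlier results of these data known. Named are all members; other integrin chains of at least 10 CPM; of each list the genes called by edgeR, otherwise the 3 with the largest absolute log2 fold change among those of at least 10 CPM; the 5 genes on each side of Itgax; and the genes whose log2 CPM followed a member best. H2-DMa, H2-DMb1 and Ciita are named as well, to show the range of the MHC class II list. Positions come from the GENCODE annotation of the given mm10 reference, in which 32158 of 32285 gene IDs matched. Itgam is overlapped on its strand by Gm49368, which is not among the genes counted. 1 gene of the list for disease-associated microglia was not analysed here. 1 of the genes beside Itgax is not reported here.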

Additional observations from a re-analysis of the deposited data

Results flagged for a closer look

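The genotype effect in D/E-like cells differed from the mean effect in the other 5 states for 3 chains, by limma's voom fit of that difference. For Itga6 the difference was -0.54 on the log2 scale (adjusted p = 8.21e-04), with a lower level in D/E-like cells of both PRMT1Cx3cr1-KO mice and a higher one in C1/C2-like and Gpnmb-led cells. For Itgb2 it was 0.28 (adjusted p = 0.0286), with -0.26, -0.22 and -0.31 in the Gpnmb-led, C1/C2-like and Malat1-low cells and 0.04 in D/E-like cells. Its value was -0.32 in A1-like and -0.06 in interferon-like cells. For Itga4 it was 1.996 (adjusted p = 0.0154), on 12 to 81 UMIs per mouse in D/E-like cells. The mean it is set against includes -2.62 in A1-like cells, where a mouse had no UMI, beside -0.23 to 1.61 in the rest. With another random seed of the clustering, none of the 3 differences was called, as given above. D/E-like cells had a median of 3710 UMIs, the fewest of the 6 states, and the part of depth in these differences was not tested.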

How the results depend on the processing

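The number of genes called between genotypes depended on single mice and on the fit. Against 62 genes with all mice, edgeR called 4 to 2759 with a mouse left out, the fewest without PRMT1FL mouse 1, 6 without PRMT1FL mouse 2, 963 without PRMT1Cx3cr1-KO mouse 2 and the most without PRMT1Cx3cr1-KO mouse 1. DESeq2 called 677, edgeR with no filter on low counts 1568, with all cells summed 749, with library size set to the other 9 integrin chains 114, and voom with the state as a term 3112; the cause of these moves was not tested. Without doublets, B1-like cells or the Malat1-low cluster (the last 2 chosen after seeing the data), with at most 5% mitochondrial UMIs, or with RLE factors, the count was 52 to 70. The value of Itgax stayed negative, between -2.24 and -1.08 with a mouse left out. It passed with no filter (-1.54, adjusted p = 1.67e-09 from edgeR). With the state as a term it also passed (-1.54, adjusted p = 1.98e-07 from voom), in a fit that treats sums of a mouse as nearly independent. With a replicate block edgeR called 275 genes and gave Itgax -1.66 (adjusted p = 0.0352), but deviations of same-numbered mice correlated by only 0.0924 over 7791 genes and nothing else pairs the numbers. The log2 ratio of Itgax to the other chains was -2.15 to -0.98 with a mouse left out and -1.74 to -1.47 otherwise. Its difference in share was -19.1 percentage points unthinned and -11.4 at 2000 UMIs, where depth and the number of shallower cells left out both differ. Itgax was called in 4 of the 6 states by voom, in 2 to 6 with a mouse left out, and in 3 to 5 otherwise. A reversal was seen for Itga4 with a mouse left out (-0.011 to 0.76, the first without PRMT1Cx3cr1-KO mouse 2) and, with another random seed, for its difference in D/E-like cells (-0.19). In the 3 other clusterings no A1-like or B1-like state was recovered, so these have no value there. Small sums limit Itgal, Itga4 and Itga9 most, with 246 to 1119 UMIs per mouse over microglia.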
